A study of Saccharomyces cerevisiae with 24 samples.

Results

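The budding yeast strain D2 (NVY1), which carries 1 extra copy of chromosome II, was compared with the euploid strain WT in sequencing run 1. The comparison rests on 4 of the 24 libraries of the series, chosen by genotype, fraction and run, with 1 ribosome footprint (FP) library and 1 total mRNA library for each strain. The whole series measured mRNA by RNA-seq and ribosome occupancy by ribosome profiling in WT and in aneuploid strains with extra copies of other chromosomes. WT and D2 are haploid S288c derivatives of mating type a with the marker genotype ura3 his3 trp1 leu2 LYS2, and D2 was derived from a strain in which both chromosome II and chromosome XII were duplicated. Both were grown untreated in rich medium (YPD) to mid-log phase and given cycloheximide, an inhibitor of translation elongation, shortly before harvest. Each strain was represented by 1 culture, so no difference reported here carries a replicate error or a p-value, and D2 stands for 1 isolate. D1/2 (NVY2), with extra copies of chromosomes I and II, was the other aneuploid strain of run 1, and run 2 held another culture of WT.

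A disomic haploid holds a full second copy of 1 chromosome, so genes on it are transcribed from an additional template while the rest of the genome keeps its single copy. Ribosome profiling sequences the mRNA fragments that translating ribosomes protect from nuclease, so the footprints of a gene follow both the amount of its mRNA and how densely ribosomes load it. Genes on other chromosomes can also differ between the strains, and yeast is known for gene programs, such as the stress response and the ribosome biogenesis regulon, whose members move together with growth conditions.

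Values are RPKM, read counts put relative to coding length and to sequencing depth. A change is the log2 ratio of D2 to WT over ORFs above 0 in both libraries, shifted so that the median ORF off chromosome II is at 0, and the difference of both changes, FP less mRNA, is called the change in ribosome density. A difference of 1.5-fold is used to count ORFs. Over nuclear ORFs with an uninterrupted reference coding sequence, the libraries held 1660416 (WT FP), 5076265 (D2 FP), 3479933 (WT mRNA) and 1945862 (D2 mRNA) reads. The median such ORF held between 79 and 302. Of 6033 nuclear ORFs, 4864 were above 0 in all 4 libraries, and 247 of 248 ORFs with an interrupted coding sequence were at 0 in all 4, so spliced genes are not measured. The labelled mating type and markers were checked on defining genes. The a-specific genes MFA1 and STE2 were expressed in both strains, MATALPHA1 and HMLALPHA1 were at 0, and HIS3 and TRP1 were at 0 in all 4 libraries. LEU2 (197 and 165 RPKM in WT and D2 mRNA) and URA3 (84.2 and 129 RPKM) were read in both strains, and which ura3 and leu2 alleles they carry is not given in the sources used here. YDR278C, an ORF of chromosome IV without a reference coding sequence, held 497842 RPKM in WT FP and 11098 in D2 FP. In bulk cultures fewer cells expressing a gene and less RNA per cell cannot be told apart.

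The spread that cultures show without a difference in genotype was available only outside run 1. Between 2 cultures of a strain in run 2, the SD of the log2 ratio over ORFs off chromosome II was 0.18 to 0.20 in mRNA and 0.21 to 0.62 in FP. Between the WT libraries of both runs it was 0.52 in mRNA and 0.61 in FP, and between D2 and WT of run 1 it was 0.52 and 0.64. Single-gene differences between D2 and WT were therefore about as wide as those between WT cultures of different runs, so list medians are also given against WT of run 2.

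Chromosome II itself stood apart from the other 15 chromosomes in both fractions. Its median change was 0.88 in mRNA (354 ORFs, quartiles 0.61 and 1.12) and 0.87 in FP (338 ORFs, quartiles 0.47 and 1.12), close to the log2 change of 1 that a doubled copy number gives. In mRNA 335 of the 354 ORFs (94.6%) lay above 0 and 275 (77.7%) were at least 1.5-fold higher, and in FP 301 of 338 (89.1%) and 237 (70.1%). Off chromosome II the same 1.5-fold limit was passed upward by 8.46% of ORFs in mRNA and 8.58% in FP. The left arm stood at 0.94 in mRNA (89 ORFs) and the right arm at 0.85 (265 ORFs), and in FP at 0.92 and 0.87. In windows of 100 kb along the chromosome, medians ranged from 0.75 to 0.97 in mRNA and from 0.75 to 0.95 in FP, apart from the last window, which held 5 ORFs. At the other end, 5 ORFs (1.41%) in mRNA and 16 (4.73%) in FP were at least 1.5-fold lower, against 10.6% and 15.4% off chromosome II. In ribosome density 26 of 337 ORFs (7.72%) were higher and 54 (16%) lower by that limit. Off chromosome II these shares were 10.8% and 16.1%, so the share of lower ORFs was that of the other chromosomes. Median ribosome density on chromosome II was -0.05 (337 ORFs), within the SD of 0.05 among the medians of the other 15 chromosomes.

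**Figure D1:**
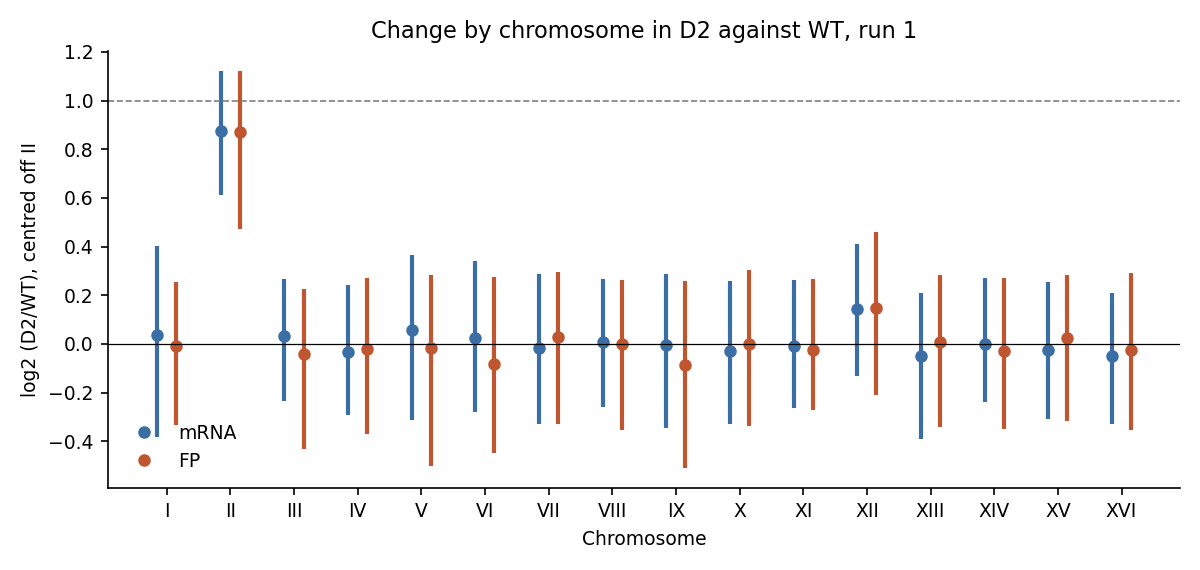
Median (point) and quartiles (line) of the log2 ratio of D2 to WT by chromosome, for mRNA (blue) and FP (orange), with the doubled level drawn as a dashed line at 1. Chromosome II stands at 0.88 and 0.87, chromosome XII at 0.14 and 0.15, and every other chromosome between -0.09 and 0.06.

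Single ORFs on chromosome II lay on both sides of its median. The SD of the change was 0.45 in mRNA and 0.63 in FP on chromosome II, and 0.52 and 0.64 off it. An ORF that departs from its copy number therefore cannot be told apart from this spread with 1 culture a side. Of 337 measured in all 4 libraries, 207 were at least 1.5-fold higher in both fractions, 37 were below 1.5-fold in both, and 10 were below 0 in both. The lowest in FP among well-read ORFs was TEC1 (YBR083W, chromosome II), the partner of Ste12 at filamentation genes, at 102 RPKM in WT and 47.7 in D2 in mRNA and 39.8 and 12.8 RPKM in FP. Its changes were -1.12 and -1.72 (95% counting interval -2.13 to -1.32 in FP), so D2 held less TEC1 message than WT despite the extra copy. In WT of run 2, however, TEC1 mRNA was at 35.1 RPKM and the mRNA change against it was 0.23, while FP stayed lower at -0.74. FUS3, the mitogen-activated kinase of the mating pathway, held 123 and 125 RPKM in WT and D2 mRNA and 93.2 and 57.2 RPKM in FP, changes of 0.01 and -0.79, and its FP change against WT of run 2 was 0.55. Both genes are themselves part of the mating response.

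Other chromosome II ORFs at the low end were -0.75 in FP for ICS2, -0.48 for VID24, a subunit of the complex that degrades gluconeogenic enzymes, and -0.47 for the alcohol dehydrogenase ADH5. MIC12, ATG8 (the ubiquitin-like protein of autophagosomes) and HHT1 (histone H3) were also below 0 in FP, at -0.40, -0.27 and -0.26, although their mRNA changes were 1.05, 1.00 and 0.54. These 3 have coding sequences of 321, 354 and 411 nucleotides, a range in which the median ribosome density change was low against WT of run 1 and not against WT of run 2. With that second reference the FP changes were -0.07 for ICS2, -0.53 for VID24, -1.10 for ADH5, -0.29 for MIC12, -0.36 for ATG8 and -0.0952 for HHT1. At the high end, CTP1, the mitochondrial citrate carrier, stood at 20.2 RPKM in WT and 84.7 in D2 in FP and at 55.7 and 163 RPKM in mRNA, changes of 1.98 and 1.52. MIS1, the mitochondrial enzyme of one-carbon folate metabolism, followed with 82.6 and 321 RPKM in FP and a change of 1.87 (1.61 in mRNA). Both exceeded the doubled level in both fractions. UTP20, TRM7, VHC1, YBL036C, PFF1 and GPI18 completed the 8 highest, with FP changes of 1.78, 1.76, 1.76, 1.71, 1.67 and 1.65. All 8 were also higher in FP than WT of run 2, by 0.73 (GPI18) to 2.22 (CTP1).

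Chromosome II genes of different expression programs stood at different levels. Genes that the environmental stress response (ESR) represses, which serve growth and translation, stood at medians of 1.18 in mRNA and 1.24 in FP on chromosome II (29 ORFs each), above the chromosome's own 0.88 and 0.87. Genes that the ESR induces, which serve protection and storage, stood at 0.61 (17 ORFs) and 0.19 (18 ORFs), below it. With WT of run 2 the same 4 medians were 1.03 and 1.34 for the repressed and 0.35 and 0.14 for the induced genes. Both lists were taken from the study. The proteasome subunit PRE7 held 207 and 711 RPKM in WT and D2 mRNA and 171 and 556 RPKM in FP, changes of 1.76 and 1.61, and the assembly factor UMP1 stood at 1.72 and 1.19. SSE2, a stress-induced Hsp110, stood at 0.09 in mRNA and -1.14 in FP, and TPS1, the trehalose-6-phosphate synthase, at 0.64 and -0.14. In footprints the repressed genes thus stood above the doubled level at the median, and the induced genes near the WT level. Members of both lists off chromosome II lay apart in the same order, with FP medians of 0.35 (repressed) and -0.58 (induced). Their mRNA medians were 0.35 and -0.49. The contrast between the lists was therefore not particular to the duplicated chromosome.

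The histone genes of chromosome II encode the same or nearly the same proteins as a second gene pair on another chromosome. HTA2 and HTB2 (H2A and H2B) stood 0.74 and 0.79 higher in mRNA but only 0.33 and 0.08 in FP. Their unduplicated partners on chromosome IV were lower in FP, HTA1 at 1754 and 1063 RPKM and HTB1 at 2047 and 1133 RPKM in WT and D2, changes of -0.81 and -0.94. HHT1 and HHF1 (H3 and H4) stood at -0.26 and -0.08 in FP, and their chromosome XIV partners HHT2 and HHF2 at -0.17 and -0.30. HTA1 and HTB1 were lower in FP than WT of run 2 as well, at -0.73 and -1.24. The medians of the 4 chromosome II histone genes were 0.76 in mRNA and -0.0013 in FP against WT of run 1. With WT of run 2 they were 0.26 and 0.18, so most of the gap between the fractions rested on WT of run 1. Partner genes share stretches of sequence, 26.6% of 28-base words for HHT1, so reads within a pair are not fully separable.

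Away from chromosome II, 406 of 4798 ORFs were at least 1.5-fold higher and 510 (10.6%) at least 1.5-fold lower in mRNA. In FP 390 of 4547 were higher and 698 (15.4%) lower. Of 4527 ORFs measured in all 4 libraries, 60 were higher and 228 lower in both fractions, while 320 were higher and 426 lower in FP with mRNA inside the limit. The lower side was thus shared between the fractions more often than the higher side. With the run 2 reference instead, 387 of the 696 ORFs lower in FP that could be compared (55.6%) and 130 of 390 higher ones (33.3%) again passed the limit in the same direction. In mRNA 318 of 510 lower ORFs (62.4%) and 104 of 406 higher ones (25.6%) did so. Across ORFs the changes in mRNA and FP correlated at r = 0.44 (description over 4527 ORFs, which share libraries). Counting error alone left 343 of 390 higher and 554 of 688 lower ORFs in FP with a 95% interval that excluded 0. Intervals cover counting error only, because PCR reads without molecular identifiers are not independent molecules.

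**Figure D2:**
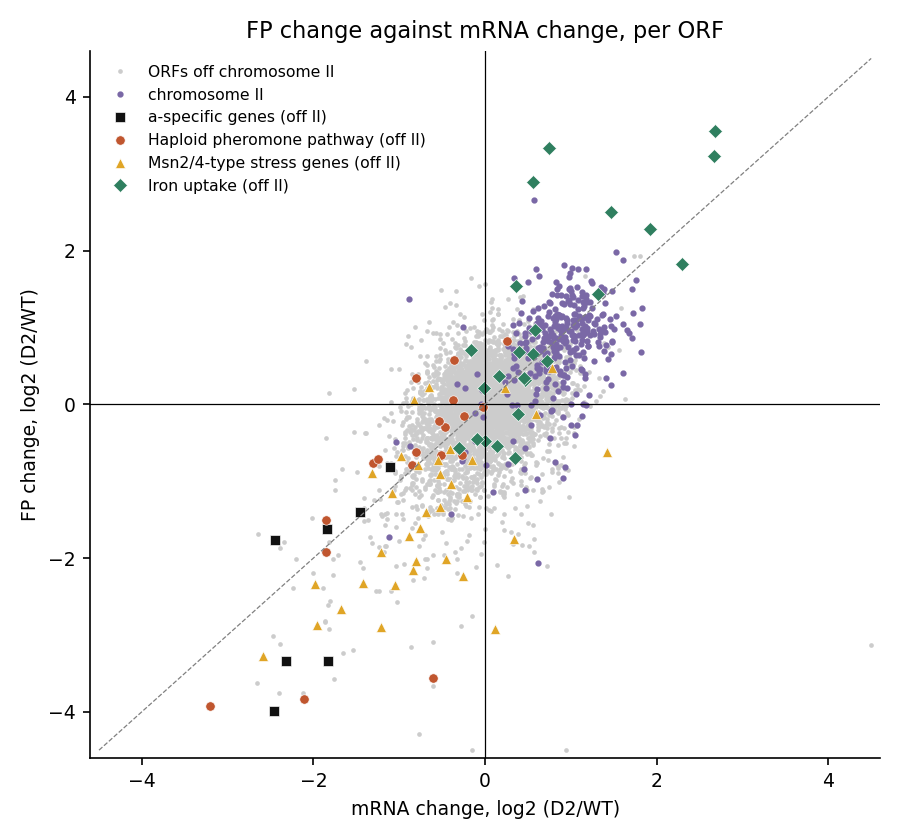
FP change against mRNA change per ORF (log2 of D2 over WT, run 1), with chromosome II in purple, 4 gene lists off chromosome II marked, and the line of equal change dashed. Points beyond 4.5 are drawn at the edge. The a-specific genes, at medians of -1.84 in mRNA and -1.77 in FP, lie in the lower left, and iron uptake genes reach 3.56 in FP.

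Genes of the mating system were among the lowest in D2 relative to WT. Yeast of mating type a expresses a-specific genes for its pheromone (MFA1, MFA2), its exporter (STE6), the receptor for the partner's pheromone (STE2), the protease that degrades that pheromone (BAR1) and a cell surface agglutinin (AGA2). Binding of pheromone to the receptor signals through a G protein and a kinase cascade to the factor Ste12, which activates fusion genes such as FUS1. All 7 a-specific genes were at least 1.5-fold lower in D2 in both fractions, where 10.6% of all ORFs off chromosome II were lower in mRNA and 15.4% in FP, with medians of -1.84 in mRNA and -1.77 in FP. MFA1 (YDR461W, chromosome IV) held 582 and 118 RPKM in WT and D2 mRNA and 1312 and 137 RPKM in FP. AGA2 held 112 and 32.2 RPKM in mRNA and 144 and 15.1 RPKM in FP. ASG7, an a-specific regulator of signalling, held 39.2 and 7.24 RPKM in mRNA and 37.7 and 2.52 RPKM in FP. D2 was lower in each of these, and the FP changes were -3.34, -3.34 and -3.99, with counting intervals of -3.73 to -2.98, -4.13 to -2.61 and -5.28 to -2.89. The other members were also lower in FP, STE2 at 422 and 146 RPKM in WT and D2, BAR1 at 131 and 40.8 RPKM, MFA2 at 2158 and 870.5 RPKM and STE6 at 79.4 and 48.0 RPKM. Of 8 alpha-specific genes, 4 could be compared in mRNA and stood at a median of -0.53, and the pheromone gene MF(ALPHA)1 was at 0 in WT and at 5.24 RPKM in D2 mRNA and 4.39 in D2 FP. With WT of run 2 the alpha-specific medians were above 0, at 0.34 in mRNA and 0.14 in FP (5 genes each). The part of these few reads in the result was not tested.

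The genes that respond to pheromone in either mating type were lower too, though not as a whole. Of the members off chromosome II, 12 of 21 in mRNA and 11 of 19 in FP were at least 1.5-fold lower, against 10.6% and 15.4% of all ORFs, with medians of -0.76 and -0.66, and 1 was higher in FP. FUS1 (YCL027W, chromosome III), needed for cell fusion, held 46.1 and 5.08 RPKM in WT and D2 mRNA and 24.0 and 1.68 RPKM in FP, the lowest mRNA change of all well-read ORFs at -3.21 (counting interval -4.18 to -2.38). AGA1, the anchor of the agglutinin, held 91.4 and 21.5 RPKM and 66.1 and 4.92 RPKM, an FP change of -3.83. FAR1, which arrests the cell cycle, and SST2, which turns the G protein off, stood in FP at -1.50 and -1.92. Most signalling components were closer to WT. GPA1, the G protein alpha subunit, stood at -0.79 in FP, STE4, its beta subunit, at 0.05, the kinase STE20 at -0.04, the factor STE12 at -0.21 and the kinase STE11 at 0.82. Of the members named here, the surface and fusion genes differed most from WT.

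The pheromone response element, the sequence to which Ste12 binds, was searched for in these promoters. Its letters TGAAACA were found, on either strand, in the 400 bases before the coding start of 17 of 27 (63.0%) pheromone pathway genes and 6 of 7 (85.7%) a-specific genes, compared with 537 of 5619 (9.56%) of all ORFs. The stretches around matches farther than 100 bases from the coding start are shown 5′ to 3′ for FUS1, for the 3 other well-read a-specific or pathway genes (mean of at least 20 RPKM) with the largest FP difference and such a match, and for TEC1 of chromosome II, from the RefSeq R64 genome with the match in capitals.
FUS1 (chrIII:71606-71659, plus strand, 197 to 144 bases before the coding start): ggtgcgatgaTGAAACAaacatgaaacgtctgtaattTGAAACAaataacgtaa
AGA1 (chrXIV:703487-703513, plus strand, 212 to 186 bases before the coding start): cataattttcTGAAACAatattaaaac
MFA1 (chrIV:1384854-1384880, plus strand, 322 to 296 bases before the coding start): attcacgatcTGTTTCAgtgttcagaa
AGA2 (chrVII:437212-437233, minus strand, 400 to 379 bases before the coding start): gaattTGTTTCAacctgccggc
TEC1 (chrII:408769-408795, plus strand, 400 to 374 bases before the coding start): ggaatgtgcgTGTTTCAgattgcgttt
A match is a description of these letters and was not tested as a binding site.

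The medians of the a-specific and pheromone pathway lists stayed below 0 with either WT library, though nearer to 0 with WT of run 2. They came to -1.32 in mRNA and -1.28 in FP for the a-specific genes, and 5 of 7 genes were at least 1.5-fold lower in FP, the others being STE6 at -0.52 and MFA2 at 0.43. The pathway medians were -0.40 and -0.49, with AGA1 mRNA higher in D2 at 0.87. Between 2 cultures of a strain in run 2 the a-specific median differed by up to 0.06 in mRNA and 1.22 in FP, and the pathway median by up to 0.13 and 0.03. In D1/2, which shares the WT library as reference, MFA1 stood at 143 RPKM in FP, STE2 at 153 and FUS1 at 3.77.

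**Figure D3:**
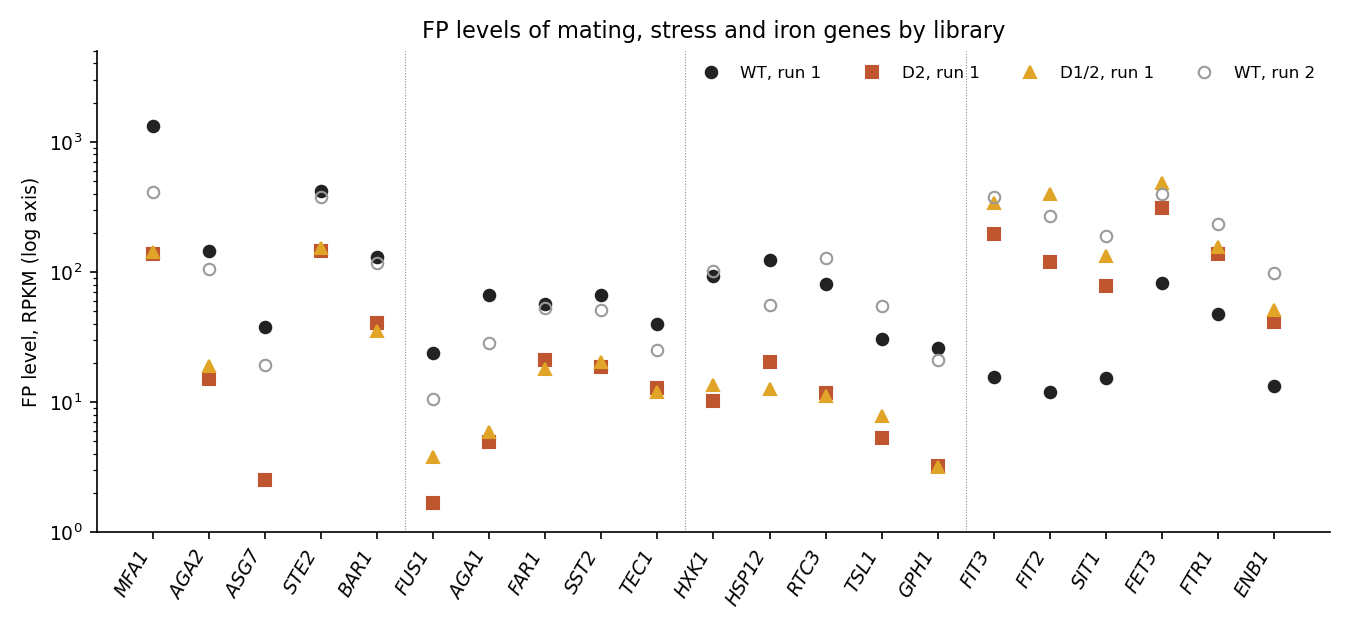
FP levels in RPKM (log axis) of a-specific genes (MFA1 to BAR1), pheromone pathway genes with TEC1 (FUS1 to TEC1), stress and storage carbohydrate genes (HXK1 to GPH1) and iron uptake genes (FIT3 to ENB1) in the 3 strains of run 1 and in WT of run 2, 1 point a library. D2 lies below both WT libraries in the genes from MFA1 to GPH1, while in the iron genes it lies above WT of run 1 and below WT of run 2. ASG7 is at 0 in D1/2 and has no point there.

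Genes for protection and energy storage were the second group below WT. Msn2 and Msn4 are the zinc finger factors that switch on general stress genes when growth slows, and trehalose and glycogen are the reserve carbohydrates made under the same conditions. Against 10.6% and 15.4% of all ORFs, of 36 Msn2/4-type stress genes off chromosome II, 19 in mRNA and 30 in FP were at least 1.5-fold lower, with medians of -0.67 and -1.37. Of 18 trehalose and glycogen genes, 11 and 12 were lower, with medians of -0.76 and -1.38. The ESR-induced genes as listed in the study stood at -0.49 (237 ORFs) and -0.58 (228 ORFs), and at -0.59 and -0.73 with WT of run 2. The median of all ORFs off chromosome II is 0 by construction.

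HXK1 (YFR053C, chromosome VI), the hexokinase that yeast expresses when glucose is scarce, held 74.2 and 12.5 RPKM in WT and D2 mRNA and 93.2 and 10.2 RPKM in FP. Its changes were -2.59 and -3.28 (counting interval -3.66 to -2.90 in FP), the lowest FP value of the Msn2/4-type list. HSP12, a membrane-protecting small heat shock protein, held 37.4 and 11.9 RPKM in mRNA and 123 and 20.5 RPKM in FP, and RTC3 held 59.7 and 15.5 RPKM and 81.3 and 11.8 RPKM. All were lower in D2 by more than the counting error. The glycogen phosphorylase GPH1 stood at -2.39 and -3.11, the phosphoglucomutase PGM2 at -0.60 and -3.66, and the trehalose synthase subunit TSL1 at -1.84 and -2.61. MSN4 itself held 38.1 and 6.19 RPKM in WT and D2 mRNA and 18.1 and 5.98 RPKM in FP, changes of -2.64 and -1.69. GPP1, a glycerol phosphatase, stood above WT at 0.78 in mRNA and 0.47 in FP, although its mRNA was lower at -0.20 with WT of run 2, and in the trehalose and glycogen list PIG1 was the 1 member more than 1.5-fold higher. NRG1, the repressor of glucose-repressed genes, was lower at 45.7 and 6.85 RPKM in FP, a change of -2.83.

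The stress response element AGGGG, bound by Msn2 and Msn4, was found in the 400 bases upstream of 40 of 45 (88.9%) Msn2/4-type genes and 16 of 21 (76.2%) trehalose and glycogen genes, compared with 1636 of 5619 (29.1%) of all ORFs. The 2 well-read members with the largest FP difference and a match are shown from RefSeq R64 with the match in capitals, on whichever strand it lies.
HXK1 (chrVI:255372-255396, minus strand, 347 to 323 bases before the coding start): tttttttttaAGGGGttgatgaaaa
RTC3 (chrVIII:280508-280532, plus strand, 312 to 288 bases before the coding start): gacaataagaCCCCTtactactagt
The stress list was again lower with WT of run 2, at -0.93 in mRNA and -1.44 in FP, and the trehalose and glycogen list at -0.68 and -1.42. Between 2 cultures of a strain these medians differed by up to 0.16 and 0.37 in FP, less than the differences between D2 and either WT library. Many trehalose and glycogen genes are sparsely read in FP, and the median of the members with a mean RPKM of at least 50 was -0.28.

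Genes for making ribosomes stood above WT. The SSU processome assembles the small subunit on the nascent rRNA in the nucleolus, and a second set of factors assembles the large subunit. Off chromosome II 8.46% of all ORFs were at least 1.5-fold higher in mRNA and 8.58% in FP. The SSU processome list had medians of 0.25 in mRNA and 0.41 in FP, with 16 of 64 genes at least 1.5-fold higher in FP and none lower. In mRNA 3 of 64 were higher, not above the share of all ORFs. For 60S assembly the medians were 0.31 and 0.46, with 24 of 69 higher and none lower in FP, and 10 of 69 higher in mRNA. NOP56, a core protein of box C/D snoRNPs, held 660.4 and 872 RPKM in WT and D2 mRNA and 383 and 787 RPKM in FP, a change of 0.95 in FP. UTP21 held 39.2 and 78.5 RPKM in FP, a change of 0.92. UTP20, the duplicated member on chromosome II, held 27.7 and 101 RPKM, a change of 1.78. Translation factors stood at 0.44 and 0.30 (12 of 41 higher in mRNA and 11 in FP, none lower). For tRNA synthetases the medians were 0.37 and 0.31, with 1 of 20 higher in each fraction, not above the share of all ORFs. The ESR-repressed genes stood at 0.35 and 0.35 (89 of 431 higher in mRNA, and 92 of 430 higher and 2 lower in FP).

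These lists were also above 0 with WT of run 2, the SSU processome at 0.69, 60S assembly at 0.62 and translation factors at 0.61 in FP, and at 0.18, 0.35 and 0.25 in mRNA. With that reference tRNA synthetases stood at 0.18 in mRNA and 0.42 in FP, and the ESR-repressed genes at 0.19 and 0.53. The largest FP difference between 2 cultures of a strain was 0.15 for the SSU processome, 0.21 for 60S assembly and 0.15 for translation factors. The PAC motif GATGAG was found upstream of 59 of 66 (89.4%) SSU processome genes and 64 of 73 (87.7%) 60S assembly genes, compared with 1301 of 5619 (23.2%) of all ORFs. It is shown for the 2 unduplicated SSU processome members with the largest FP difference and a match, and for UTP20.
NOP56 (chrXII:545960-545985, plus strand, 137 to 112 bases before the coding start): ttttttgagtGATGAGatgggaaatg
UTP21 (chrXII:937564-937589, minus strand, 356 to 331 bases before the coding start): gttgaggaacCTCATCagattcaatc
UTP20 (chrII:227454-227479, plus strand, 182 to 157 bases before the coding start): aatttttaccGATGAGcattgaaaag
These stretches are again from RefSeq R64 with the match in capitals.

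The lists of cytosolic chaperones and of the proteasome stood above WT as well, whereas stress-induced chaperones stood below it. Against 8.46% of all ORFs in mRNA and 8.58% in FP, of 38 cytosolic chaperone genes 19 were at least 1.5-fold higher in mRNA and 5 in FP, with none lower and medians of 0.58 and 0.31. Of 40 proteasome genes off chromosome II 12 and 7 were higher, none lower, with medians of 0.48 and 0.38. Stress-induced chaperones were counted in the Msn2/4-type list instead, with FP changes of -0.72 (HSP104), -0.91 (HSP42), -1.16 (HSP78) and -1.34 (SSA4). The study's list of heat shock response (HSR) genes, 80 ORFs, stood at -0.25 in mRNA and -0.56 in FP. In FP 38 of them were at least 1.5-fold lower and 2 higher, and with WT of run 2 the FP median was -0.63. CCT6, a subunit of the TRiC chaperonin, held 323 and 729 RPKM in WT and D2 mRNA and 339 and 425 RPKM in FP, while its partner TCP1 held 262 and 364 RPKM and 180.0 and 316 RPKM. The prefoldin subunit YKE2 had the largest FP change of the chaperone list off chromosome II at 1.09. RPN4, the transcription factor of proteasome genes, held 31.3 and 59.3 RPKM in WT and D2 FP, a change of 0.84, and the lid subunit RPN9 held 68.4 and 135 RPKM, a change of 0.89. The duplicated subunit PRE7, at 1.61, stood above every measured proteasome gene off chromosome II. With WT of run 2 the mRNA medians were smaller, 0.23 for chaperones (4 of 38 higher) and 0.24 for the proteasome (1 of 40 higher, 2 lower), so most of the mRNA calls rested on WT of run 1. The FP medians were 0.34 and 0.27 with that reference, and 2 cultures of a strain differed by up to 0.15 and 0.25 in FP. In FP 9 of 38 chaperone genes were then higher and 0 lower, and 4 of 40 proteasome genes higher and 1 lower. Of all ORFs off chromosome II 503 of 4633 were higher with that reference, so the proteasome count was not above that share. GGTGGCA, the core of the Rpn4 motif, was present within the same 400 bases of 29 of 45 (64.4%) proteasome genes and 198 of 5619 (3.52%) of all ORFs, with 2 examples here.
RPN9 (chrIV:1322086-1322104, plus strand, 119 to 101 bases before the coding start): gctttcatccGGTGGCAaa
PRE10 (chrXV:1018858-1018884, minus strand, 138 to 112 bases before the coding start): cctctaaatcGGTGGCAaaaataagaa

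**Figure D4:**
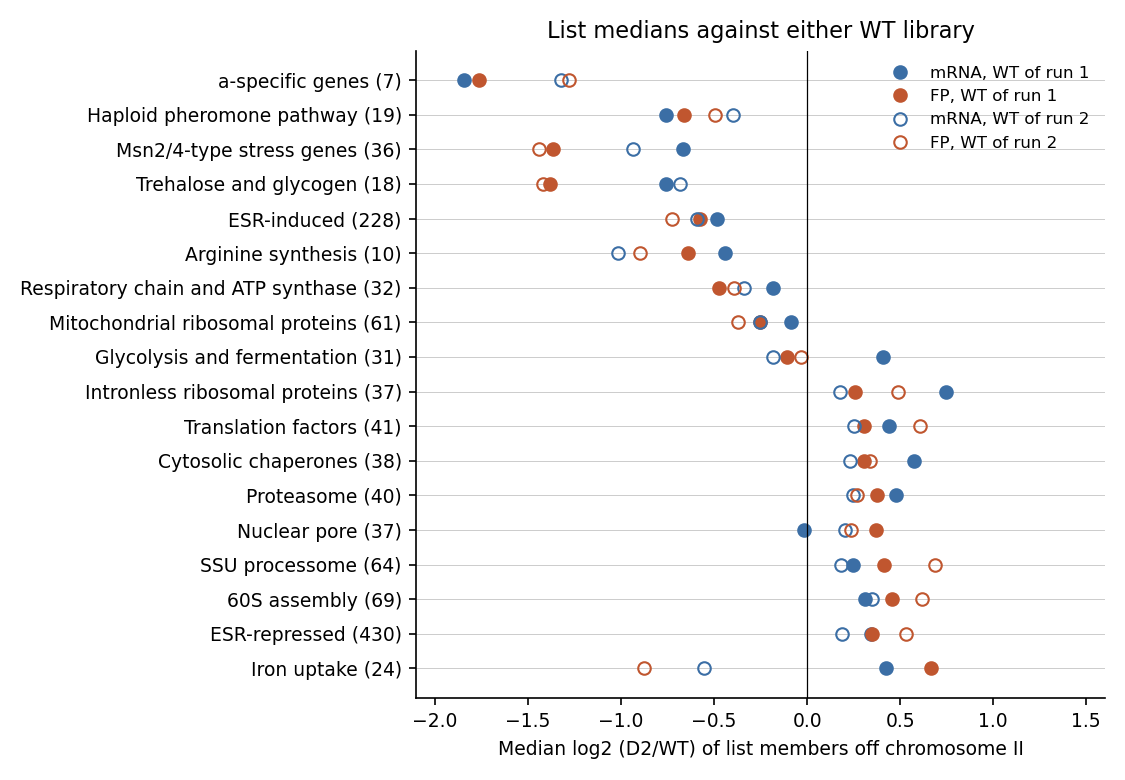
Median log2 ratio of D2 to WT for members of 18 lists off chromosome II (number measured in FP in brackets), in mRNA (blue) and FP (orange), against WT of run 1 (filled) and WT of run 2 (open). Mating and stress lists lie left of 0 and the assembly, cytosolic chaperone and proteasome lists right of 0 against both WT libraries. Iron uptake changes side, from 0.67 to -0.87 in FP, as do the mRNA medians of glycolysis and fermentation (0.41 to -0.18) and nuclear pore (-0.01 to 0.20).

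The highest FP changes of all were those of iron uptake genes, and here the direction rested on the WT library used. Yeast takes up iron by a ferroxidase and permease pair at the plasma membrane (FET3, FTR1) and by siderophore transporters (SIT1, ENB1, ARN1, ARN2), with wall mannoproteins that bind siderophores (FIT1 to FIT3), all under the iron sensing factor Aft1. FIT3 (YOR383C, chromosome XV) held 27.6 and 180.1 RPKM in WT and D2 mRNA and 15.6 and 196 RPKM in FP. FIT2 held 10.7 and 69.1 RPKM and 12.04 and 119.6 RPKM, and SIT1 held 32.7 and 126 RPKM and 15.3 and 78.5 RPKM. FET3, the most abundant of them, held 76.8 and 383 RPKM and 82.7 and 311 RPKM. D2 was thus higher than WT of run 1 in both fractions, with FP changes of 3.56, 3.23, 2.28 and 1.83, yet lower than WT of run 2, at -0.70, -0.94, -1.03 and -0.12. FTR1 and ENB1, also among the 10 highest, stood at 1.43 and 1.54 against WT of run 1 and at -0.55 and -1.01 against WT of run 2.

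Over the list, 13 of 24 genes were at least 1.5-fold higher and 1 lower in FP against WT of run 1, compared with 8.58% and 15.4% of all ORFs, with medians of 0.43 in mRNA and 0.67 in FP. Against WT of run 2 the medians were -0.56 and -0.87, with 0 of 27 genes higher and 16 lower in FP. Among list members with a mean of at least 50 RPKM the FP median against WT of run 1 was 0.027. The FP median differed by up to 0.21 between 2 cultures of a strain in run 2. In D1/2, of the same run, the FP levels were 339 RPKM for FIT3, 400.3 for FIT2 and 132 for SIT1, so WT of run 1 held the lowest level of each among these 4 FP libraries. ISU1, a scaffold for iron-sulfur clusters, was lower in FP at -0.70. The Aft1 motif TGCACCC was found upstream of 16 of 29 (55.2%) iron uptake genes and 100 of 5619 (1.78%) of all ORFs, and the 2 well-read members with the largest FP difference, FIT3 and FIT2, carry it as shown from RefSeq R64.
FIT3 (chrXV:1061324-1061350, minus strand, 295 to 269 bases before the coding start): gattttttttTGCACCCtgtttgttcc
FIT2 (chrXV:1059190-1059298, plus strand, 341 to 233 bases before the coding start): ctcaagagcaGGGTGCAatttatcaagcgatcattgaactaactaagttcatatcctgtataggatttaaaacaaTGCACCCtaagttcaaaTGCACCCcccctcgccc
Whether the iron genes differ with chromosome II or with the culture cannot be told apart from these libraries.

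Among the remaining genes high in FP, PHO84, the high-affinity phosphate transporter, held 16.6 and 55.9 RPKM in WT and D2, a change of 1.67 that was -0.69 against WT of run 2. HPF1, a cell wall mannoprotein, held 11.1 and 36.3 RPKM, a change of 1.62 that stayed at 1.51. CLG1 and FAU1, the latter an enzyme of folate metabolism, stood at 1.41 and 1.37, and at 0.75 and 0.95 against WT of run 2. In mRNA, the neighbouring ORFs PRM7 and BSC1 on chromosome IV stood at 2.14 and 1.89 and are listed at 0 in FP of both strains, PDH1, an enzyme of propionate breakdown, at 1.73, and YCR051W at 1.63 with an FP change of 0.06. Of these, HPF1, CLG1, FAU1, PRM7, BSC1 and YCR051W were also higher than WT of run 2 in the fraction that named them, and PHO84 and PDH1 were not. PRM7 is annotated as a pheromone-regulated protein, is not a member of the pheromone pathway list and went against the mRNA median of that list.

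On the low side, ARG3, which makes citrulline, stood at -2.40 in mRNA and -1.87 in FP, and 6 of 10 arginine genes were at least 1.5-fold lower in FP, against 15.4% of all ORFs (median -0.64, and -0.90 against WT of run 2). Between 2 cultures of 1 strain in run 2, however, that median differed by up to 2.85, so the FP value is smaller than the spread between cultures. CAR1, the arginase that breaks arginine down, was higher, at 111 and 305 RPKM in WT and D2 mRNA and 173 and 309 RPKM in FP. WSC4, a cell wall sensor, stood at -2.66 in mRNA, FRE7, a ferric reductase, at -2.24, and YNL143C at -2.35, and FRE7 mRNA was higher at 0.36 against WT of run 2. YNL143C held 23.2 RPKM in FP of WT of run 1 and 12597 RPKM in that of run 2, so the WT libraries alone differed widely there. In FP, YAR066W and MOR1 stood at -3.75 and -2.88, where YAR066W shares 95.2% of its 28-base words with other ORFs and cannot be assigned with certainty. Genes of the respiratory chain and ATP synthase stood at -0.18 in mRNA and -0.47 in FP (13 of 32 lower in FP), and mitochondrial ribosomal proteins at -0.09 and -0.25 (12 of 61 lower, near the 15.4% of all ORFs). Both lists were also below 0 against WT of run 2, at -0.34 and -0.25 in mRNA and at -0.39 and -0.37 in FP, where 2 cultures of a strain differed by up to 0.08 and 0.25.

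Ribosome density was at least 1.5-fold higher in 491 (10.8%) and lower in 728 (16.1%) of 4527 ORFs off chromosome II, and 47.9% lay above 0. With WT of run 2, only 95 of the 491 higher ORFs (19.3%) passed the limit again, and 189 lay on the other side of 0. Of 727 lower ones that could be compared, 199 (27.4%) passed again and 279 lay on the other side of 0. Gene groups of high mRNA level were among those that stood low. The intronless ribosomal protein genes stood 0.75 higher in mRNA (29 of 37 at least 1.5-fold) but 0.26 in FP (3 of 37, near the share of 8.58% over all ORFs, which is 8.46% in mRNA), a ribosome density of -0.51. Glycolysis and fermentation genes stood at 0.41 in mRNA, -0.11 in FP and -0.64 in ribosome density. ENO2, the main enolase, held 7325 and 14575 RPKM in WT and D2 mRNA and 17163 and 16585 RPKM in FP, and TDH3, the main glyceraldehyde-3-phosphate dehydrogenase, held 10264 and 19839 RPKM and 21506 and 23799.5 RPKM. Message of both was higher in D2 while footprints were nearly level, but with WT of run 2 TDH3 mRNA stood at -0.18. Against WT of run 2 the ribosome density of both lists lay on the other side of 0, at 0.30 and 0.17. The mRNA median of the ribosomal protein genes was then 0.18 (2 of 37 higher) and that of glycolysis and fermentation -0.18, while in FP they were 0.49 and -0.0345.

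The ribosome density change moved with coding length and mRNA level. Its median was -0.50 in ORFs of up to 400 nucleotides (189 ORFs), -0.22 in the next class up to 800, -0.08 in that up to 1200, and 0.17 above 2700 (539 ORFs). In ORFs above 500 RPKM in WT mRNA it was -0.44 (169 ORFs), with medians of 0.59 in mRNA and 0.13 in FP. Between D2 and D1/2, which leaves the WT library out, medians over the same length classes lay between -0.07 and 0.06, and against WT of run 2 they ran from 0.05 in the shortest class to -0.14 in the longest. Of the 3 ratios, the climb with length was thus present only in that to the run 1 WT libraries, and its part in the ribosome density of single genes was not tested.

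**Figure D5:**
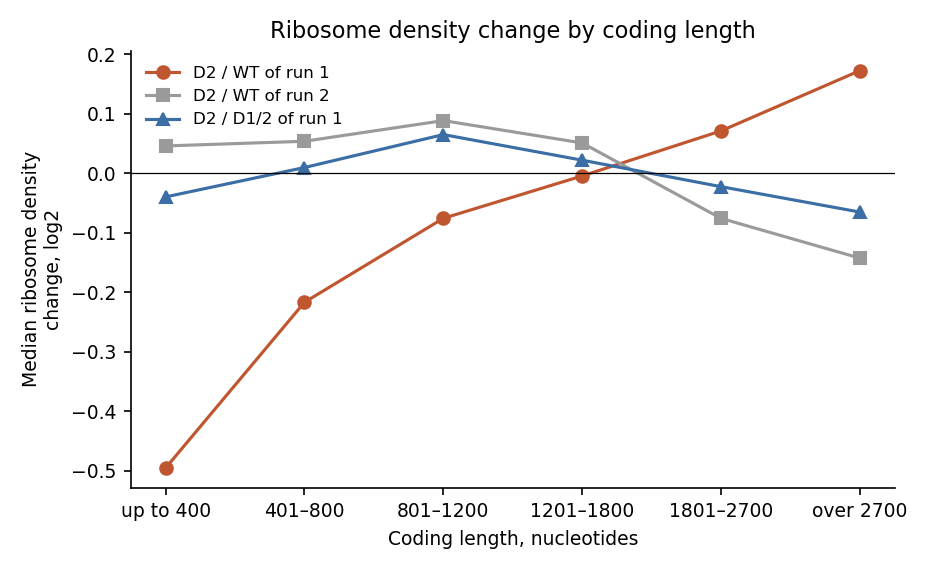
Median ribosome density change (log2) by coding length class for D2 over WT of run 1 (orange), D2 over WT of run 2 (grey) and D2 over D1/2 (blue). Of the 3, only the ratio to WT of run 1 climbs with length, from -0.50 to 0.17.

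Among the 8 ORFs lowest in ribosome density, YLR162W on chromosome XII held 20.8 and 1065 RPKM in WT and D2 mRNA and 36.9 and 4.46 RPKM in FP, and its mRNA change with WT of run 2 was -0.22. Its FP level was 6181 RPKM in WT of run 2 and 0 in D1/2, so the WT libraries alone differed widely at this ORF. YGL088W overlaps the snoRNA gene SNR10, and RPL41A (78 nucleotides) shares 82.4% of its 28-base words with other ORFs, so the reads of both cannot be assigned with certainty. MOR1, EDC2, STF2, COX23 and DAT1 stood at -2.60, -2.07, -1.97, -1.87 and -1.83, with coding lengths of 255 to 747 nucleotides. With WT of run 2 MOR1 and STF2 stayed low at -1.50 and -1.11, EDC2 and COX23 were at -0.31 and -0.12, and DAT1 was at 0.17. Among the 8 highest, COX7, a subunit of cytochrome c oxidase, held 79.7 and 42.9 RPKM in WT and D2 mRNA and 94.3 and 172 RPKM in FP, a ribosome density change of 1.70. ARO10, the decarboxylase of the fusel alcohol pathway, held 226 and 115 RPKM and 29.4 and 42.8 RPKM, a change of 1.45, and FEX1, COG5, RNH202, VPS20, CAX4 and ENB1 stood between 1.18 and 1.45. With WT of run 2 COX7, ARO10 and FEX1 were at 1.70, 1.09 and 0.81, whereas COG5, RNH202, VPS20, CAX4 and ENB1 lay between 0.10 and 0.32. Nuclear pore genes stood high in ribosome density at 0.38 (9 of 37 at least 1.5-fold higher, against 10.8% of all ORFs), with -0.01 in mRNA and 0.37 in FP, against 0.04 in ribosome density with WT of run 2.

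Chromosome XII, which the parental strain of D2 carried in duplicate, stood slightly above most other unduplicated chromosomes. Its median change was 0.14 in mRNA (450 ORFs, 65.6% above 0) and 0.15 in FP (417 ORFs, 60.4% above 0), while the medians of 13 other chromosomes, II and I aside, lay between -0.05 and 0.06 in mRNA and between -0.09 and 0.03 in FP. Against WT of run 2 it stood at 0.16 and 0.14, and against D1/2 at 0.08 and 0.07, with the same 13 chromosomes between -0.05 and 0.04 and between -0.03 and 0.01. The median of chromosome XII was therefore above those of these 13 with each of the 3 references. Chromosome I, duplicated in D1/2 but not in D2 or WT, lay below it against WT of run 1 but above it in FP against WT of run 2, at 0.157. What this difference stems from was not tested.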

How the data were processed

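Ribosome footprint (FP) and total mRNA libraries of WT and D2 were compared within run 1. The authors deposited RPKM, 1 value per ORF and library, from reads trimmed by cutadapt and aligned by Bowtie to the mRNAs of sacCer3 with no mismatch allowed, of which those inside coding sequences were counted. Per the study's methods, aneuploid values were also scaled by the median of their ratios to WT among genes whose copy number was unaltered.

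The log2 ratio was taken over ORFs above 0 in both libraries without a pseudocount and centred on the median of ORFs off chromosome II, which shifted mRNA by 0.02 and FP by 0.09. The 28 mitochondrial ORFs were left out. RPKM multiplied by coding length less 1 steps in whole reads, with a minimum of 4. Of values of up to 50 reads, at least 99.7% lay within 0.05 of a whole number. The recovered reads gave depth and exact 95% intervals of the ratio of 2 counts (Clopper-Pearson), which cover counting error only. No tool that needs counts was applied. Annotation and sequence came from RefSeq R64, the same assembly as sacCer3, and held a coding sequence for 5620 ORFs.

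Named genes off chromosome II were, among ORFs with a reference coding sequence and a mean of at least 20 RPKM over WT and D2, the 10 highest and 10 lowest in FP and in mRNA and the 8 highest and 8 lowest in ribosome density. On chromosome II they were the 8 highest and 8 lowest in FP. Members of gene lists are named as examples. The members and the lists were chosen with earlier results of these data known, so no list is independent evidence of its direction. The ESR and HSR lists are those of the study. With 1 culture a side no test was made.

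Alternatives were no centring, centring on all ORFs, a pseudocount of 1 RPKM, a mean of at least 10 or 50 RPKM, only ORFs with a reference coding sequence, WT of run 2 as reference and the geometric mean of the 2 WT libraries. The functions were tested on simulated reads. Python 3.11.15, numpy 2.4.6, pandas 2.3.3 and scipy 1.17.1 were used.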

Additional observations from a re-analysis of the deposited data

Results flagged for a closer look

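The comparisons leave out ORFs at 0 in a library, where no value of under 4 reads is listed. Of nuclear ORFs, 108 were at 0 in WT FP and above 0 in D2 FP, and 49 the reverse. Those with at least 10 reads in D2 FP and at least 3-fold higher are named first. FRE4, a ferric reductase, was at least 7.16-fold higher in D2 (58 reads, against a floor of 3 reads in WT), FIT1, a mannoprotein of the iron list that has no FP change for this reason, at least 4.94-fold (40 reads) and EST2, the telomerase catalytic subunit, at least 3.21-fold (26 reads). Against WT of run 2 FIT1 was lower in D2, at -2.23 in FP. The mRNA changes of FRE4, FIT1 and EST2 against WT of run 1 were 0.96, 0.11 and -0.57. In the other direction, INO1, which makes inositol phosphate, was at 0 in D2 FP and at least 15.3-fold lower than in WT (17 reads). BSC5 was at least 12.6-fold lower (14 reads), and PHM6, FLO5 and YFL067W at least 10.8-fold each (12 reads). The mRNA changes of INO1, BSC5 and FLO5 were -0.07, -0.77 and -0.16, while PHM6 and YFL067W were also at 0 in D2 mRNA.

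Of 28 mitochondrial ORFs, Q0085 stood at 1.78 RPKM and Q0130 at 4.31 RPKM in D2 FP and at 0 in WT FP, while 8 others were lower in D2 FP than in WT FP.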

How the results depend on the processing

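No paired analysis was possible because each group has 1 culture. With only ORFs of a mean of at least 50 RPKM, counts off chromosome II were 207 higher and 200 lower in mRNA, 97 and 202 in FP, and 66 and 290 in ribosome density. The chromosome II medians were then 0.83 in mRNA and -0.13 in ribosome density, and FP medians were -0.71 for the pheromone pathway, 0.027 for iron uptake, -1.19 for Msn2/4-type genes and -0.28 for trehalose and glycogen. A mean of at least 10 RPKM left 305 ORFs higher in ribosome density. A pseudocount moved trehalose and glycogen to -0.96. Without centring the chromosome II medians were 0.95 in FP and 0.011 in ribosome density, and the pheromone pathway stood at -0.57 in FP.

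With the WT libraries of both runs averaged, 238 ORFs were higher in mRNA, 250 higher in ribosome density and 416 lower in it. List medians were -0.50 (pheromone pathway), 0.23 (iron uptake) and 0.57 (SSU processome) in FP, and -0.20 (glycolysis) and -0.083 (ribosomal proteins) in ribosome density. With WT of run 2 as reference, chromosome II stood at 0.023 in ribosome density, and FP medians were 0.62 for 60S assembly, 0.69 for the SSU processome and -0.49 for the pheromone pathway. Of the 18 main values, 4 changed sign with that reference, the chromosome II ribosome density just given, the ribosome density of glycolysis genes (0.17) and ribosomal proteins (0.30), and iron uptake in FP (-0.87). Outside these 18, further list medians changed sign too. Among them were the mRNA medians of glycolysis (-0.18), iron uptake (-0.56), alpha-specific (0.34), purine synthesis (-0.097) and ergosterol synthesis genes (-0.078). The FP median of alpha-specific genes (0.14) was another.

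Among named genes that reference turned FIT3 (-0.70 in FP and -0.26 in mRNA), FIT2 (-0.94 and -0.79), SIT1 (-1.03 and -1.23), FET3 (-0.12 and -0.43), PHO84 (-0.69 and -1.80) and FTR1 (-0.55 and -0.55), further ENB1 (-1.01), FUS3 (0.55), MFA2 (0.43), COX23 (0.029), DAT1 (1.15), RPL41A (1.96) and YGL088W (1.61) in FP, YLR162W (-0.22), PDH1 (-0.12), FRE7 (0.36), AGA1 (0.87), GPP1 (-0.20), TDH3 (-0.18) and TEC1 (0.23) in mRNA, and YGL088W (1.53), RPL41A (0.96) and DAT1 (0.17) in ribosome density. With the averaged reference DAT1 (0.13) and RPL41A (0.37) in FP and PHO84 (-0.33) in mRNA turned. The cause was not tested. Centring on all ORFs and keeping only ORFs with a reference coding sequence moved none of the 18 main values. The lowest depth, 1660416 reads over ORFs with an uninterrupted reference coding sequence in WT FP, limits ORFs of few reads most.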
